A study of Mus musculus with 12 samples.

Results

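The sub gate, labelled as lying below the low gate of a sort on Sox9EGFP, was compared with the 3 other gates of that sort. Expression in an intermediate gate can simply lie between its neighbours. The genes described below are those that did not: the values of the 3 sub libraries lay above, or below, all 9 libraries of the neg, low and high gates. The rule was applied to the 16128 genes whose normalised counts averaged 10 or more across the 12 libraries: 100 lay above and 53 lay below, 153 genes in all. The deposited table lists 54227 gene symbols.

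Sox9 is a transcription factor of bile duct cells, which line the ducts that carry bile out of the liver, and it is also found in some periportal hepatocytes. Around the ducts lie the portal fibroblasts, smooth muscle, nerves, arteries and lymphatic vessels of the portal tract. Hepatic stellate cells and sinusoidal endothelial cells lie along the sinusoids. Stellate cells and fibroblasts make most of the matrix of the liver, and their contraction is countered by nitric oxide, which acts through guanylate cyclase and cyclic GMP.

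All 12 libraries came from C57Bl/6 mice that carry the Sox9EGFP transgene and had been fasted for 16 h. Dissociated liver cells were sorted on EGFP into the neg, sub, low and high gates, and 12000 cells went into each library, with 3 libraries per gate. The neg gate is thus EGFP-negative cells of transgenic animals. The labels call sub a gate below low, and they give neither the gate limits nor the age or sex of the mice. The descriptions carry a suffix that the 4 gates of a replicate number share, and its meaning is not given. Whether libraries of a gate came from separate mice is not stated either, so the p-values measure the spread between these libraries only. A transgene reports promoter activity, and a bulk library cannot tell fewer cells of a type from less RNA per cell.

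Depth ranged from 8775387 to 15535588 recovered reads per library, and the sub libraries held 9872316 to 15251585. Between 38.9% and 47.2% of the 16128 genes were listed at 0 in a sub library, against 28.3% to 47.6% in the other gates. Among sub libraries the median coefficient of variation was 1.07 over tested genes with a sub mean of at least 10. Most landmarks of the gates put sub between neg and the brighter gates. The summed values of 15 biliary markers were 22663 to 38312 in sub, 594.4 to 1031 in neg, 78852 to 102815 in low and 70847 to 76548 in high. Sox9 itself held 6653, 4237 and 3707 in sub, at most 0.69 in neg and at least 8838 in low and high. Epcam and Krt19 overlapped with high. Epcam held 3748, 591.9 and 1534 in sub and 3487 to 4921 in high. Krt19 held 3828, 709.8 and 845.8 in sub and 448.7 to 1415 in high, and its mean in sub, 1794, lay above that in high, 782.9. The 10 pan-endothelial markers summed to 25084 to 28939 in sub, 76611 to 101402 in neg and at most 1298 in low and high. All 10 lymphocyte markers were at 0 in the 3 sub libraries, and 8 were so throughout neg, 6 throughout low and 8 throughout high. The labels name no cell type for the gate, and its libraries hold biliary, hepatocyte, endothelial and mesenchymal markers together.

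Few genes passed a test of the sub gate against the other gates in limma, the main test, and the count depended on the fit. In limma on log2(normalised count + 1), the contrast of sub with the mean of neg, low and high passed an adjusted p of 0.05 for 27 genes higher in sub, 0.167% of those tested, and for 7 lower, 0.0434%. The same contrast passed 316 higher and 12 lower in edgeR on the recovered reads of 12 libraries, and 1011 and 869 in DESeq2. With no variance trend limma passed 86 and 27. Of the 100 genes above all 9 libraries, 0.62% of those tested, 8 passed as higher in the main test. Of the 53 genes below, 0.329% of those tested, 5 passed as lower. On 12 libraries DESeq2 called 41 of the 100 and 43 of the 53, and edgeR 21 and 5. With no variance trend limma called 20 and 17. Lack of overlap and the contrast use the same 12 libraries, so these shares are no independent support for each other. Without sub 2 the limma contrast passed 3 genes higher and 2 lower, and without sub 3 it passed 6 and 16. Without sub 1 it passed 23 and 25.

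A stricter test asked that sub differ from each of the 3 gates in the same direction, taking the largest of the 3 p-values. It passed 0 genes above and 0 below (0% of those tested) in limma, with 74 above and 109 below at an unadjusted p under 0.05. On the recovered reads of 12 libraries it passed 0 above and 1 below in edgeR, and 2 above and 390 below in DESeq2. On 10 libraries, without sub 3 and high 2, it passed 0 and 5 in edgeR and 123 and 425 in DESeq2. That DESeq2 fit was added after the data were seen. With no variance trend limma passed 4 above and 4 below. The same count of genes without overlap was 121 above and 58 below for the low gate, 145 and 52 for high, and 397 and 333 for neg. The counts for sub were thus lower than those for neg and low in both directions, and lower than those for high among genes above.

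**Figure D1:**
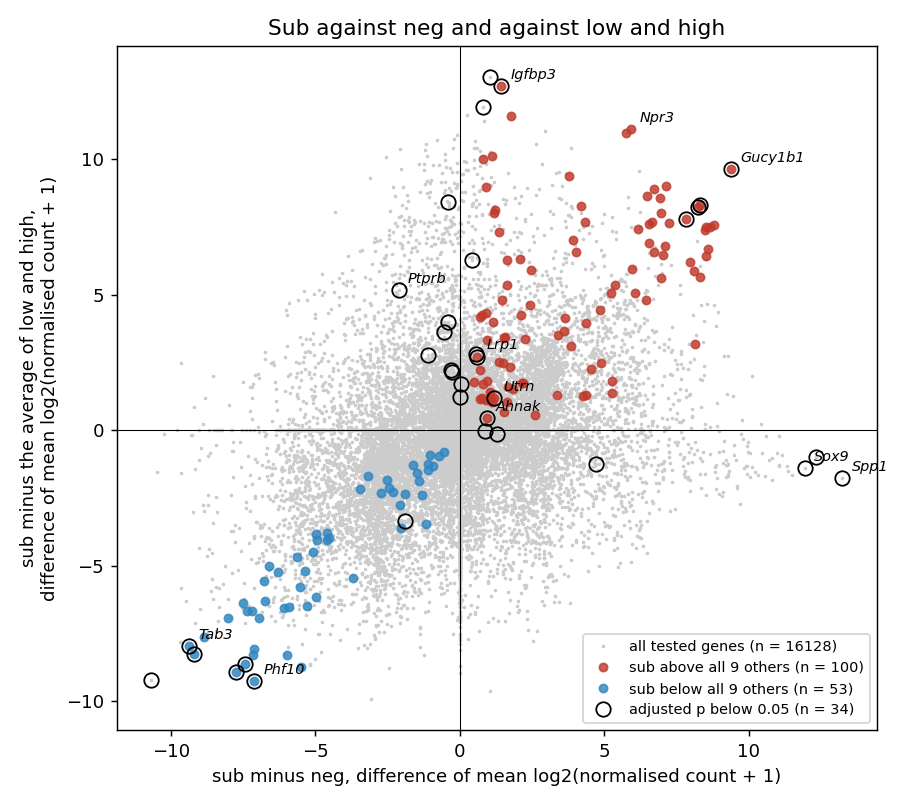
Each point is a gene, placed by the difference of mean log2(normalised count + 1) of sub from neg (x axis) and of sub from the average of low and high (y axis). Red points are the 100 genes above all 9 other libraries, blue points the 53 below, and black rings the 34 genes that passed the contrast, of which Sox9 and Spp1 at the far right lie between neg and the brighter gates.

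The genes above differed in where else they were found. Among the other gates the highest mean was that of neg for 55 of the 100, low for 20 and high for 25. Over all tested genes neg had the highest mean of the 3 for 41.1%. At most 3 reads were seen in every low and high library for 15 of the 100, against 1652 of all 16128, and in all 9 other libraries for 7. The 7 were Gucy1b1, Col28a1, Foxf1, Pdlim3, Adamts14, Kctd7 and Raver2. How many of all tested genes were confined to sub, or to another gate, in this way was not counted, so nothing is concluded from this number. The median level of the 100 genes was 933.2 in sub and 215.3 over the 9 other libraries.

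Gucy1b1 encodes the beta subunit of soluble guanylate cyclase, the receptor for nitric oxide (chromosome 3, 82032006 to 82074689, minus strand; this and later positions are GENCODE M21 on GRCm38). Its normalised counts were 961, 367.5 and 1403 in sub, 0.69, 0 and 0 in neg and 0 in all low and high libraries. It was thus seen in all 3 sub libraries and, at 1 read, in 1 other. The mean of sub exceeded that of neg by at least 248-fold, that of low by at least 357-fold and that of high by at least 300.3-fold. The difference from the mean of the other gates was 9.55 ± 1.66 (SE) on the log2 scale, with an adjusted p of 0.0275 in limma. The call was lost without sub 2 (0.0563), in edgeR on 10 libraries (0.0542) and with the 9 others as 1 group (0.12). Over the 12 fits that left out a library its adjusted p ran from 0.0269 to 0.0563. Of the 10 genes listed for nitric oxide and cyclic GMP, 8 were tested and Gucy1b1 was the only one to pass, where 0.167% of all tested genes passed as higher. The list median was 4.32 against -0.30 over all tested genes, and the mean of sub was the highest of the 4 gates for 4 of the 8. The partner subunit Gucy1a1, chosen after its values were seen, was not confined to sub. It held 679.5, 1388 and 1163 in sub and 449.8, 245.8 and 1321 in neg, with 0.82 to 26.3 in low and high.

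Another 3 genes that passed were seen in sub alone. Like Gucy1b1, they met the filter on the mean through the sub libraries only. Their p-values come from the same values that picked them, so these are no independent support. Col28a1, a collagen chain (chromosome 6, 7997808 to 8192617, minus strand), held 531.4, 272.5 and 219.4 in sub and 0 in the other 9 libraries. Its excess over neg was at least 93.0-fold, with a log2 difference of 8.31 ± 1.57 and an adjusted p of 0.0315 in limma. Foxf1, a forkhead factor of gut and liver mesenchyme (chromosome 8, 121084386 to 121088144, plus strand), held 106.1, 612.5 and 407.0 in sub and 0 elsewhere (at least 102-fold; log2 difference 8.23 ± 1.58; adjusted p 0.0358). Pdlim3, a cytoskeletal protein that binds alpha-actinin in muscle (chromosome 8, 45885461 to 45919548, plus strand), held 219.6, 314.9 and 161.6 in sub and 0 elsewhere. Its excess over neg was at least 63.2-fold, with a log2 difference of 7.81 ± 1.53 and an adjusted p of 0.0365. All 3 calls were fragile. Col28a1 kept its call in 3 of the 12 fits that left out a library (adjusted p 0.0461 to 0.0887), Foxf1 in 1, the fit without sub 1 (0.0269 to 0.112), and Pdlim3 in 0 (0.0511 to 0.112). In that order they had 0.0699, 0.0724 and 0.0773 with array weights, 0.12, 0.12 and 0.132 with the 9 others as 1 group, and 0.125, 0.16 and 0.215 in edgeR on 10 libraries. A block for the replicate number ended all 3 calls too, at 0.0511, 0.056 and 0.0708 in the same order. In edgeR on 12 libraries Pdlim3 was lost as well (0.08).

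Adamts14, a procollagen peptidase, did not pass: it held 367.0, 113.3 and 61.8 in sub and at most 0.85 in each of the other 9 libraries (adjusted p 0.0820). Kctd7 and Raver2 rested on few reads in at least 1 sub library. Kctd7 held 330.2, 1.14 and 329.2 in sub, and Raver2 2.21, 1.14 and 295.2, with at most 0.82 in the other 9. Raver2 was the gene above with the lowest mean over the 12 libraries, 25.0. Just under the limit of 10, Gm10748 (mean 9.60) and Gm47093 (mean 6.18) also had sub values above all others.

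Markers of mesenchymal cells were present in sub and in neg. The mean of sub was the highest of the 4 gates for 9 of 12 hepatic stellate, 10 of 12 portal fibroblast and 8 of 12 smooth muscle and pericyte markers, against 24.3% of all tested genes, and 0 of these markers passed in limma. Among those named, Pdgfrb, Pdgfra, Eln and Reln passed as higher in edgeR and DESeq2 on 12 libraries. Myh11 passed in edgeR but not in DESeq2, and Mylk in neither. The 12 hepatic stellate markers, none of them at 0 throughout sub, summed to 12570 to 18333 in sub and 10672 to 13638 in neg, against 117.5 to 1005 in low and high. The 12 portal fibroblast markers summed to 6215 to 16800 in sub, with Entpd2 at 0, and to 6567 to 9478 in neg. The 12 smooth muscle and pericyte markers summed to 13058 to 21404 in sub, with Cnn1 at 0, and to 7108 to 18394 in neg. The means of these sums were 15546, 10825 and 17047 in sub and 12411, 7836 and 13152 in neg. Each sum overlapped between sub and neg. Gucy1b1, Col28a1, Foxf1 and Pdlim3 were at the floor in neg, but they were picked for lack of overlap, so setting them against these sums decides nothing. The part of these cell types in the results was not tested.

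The upstream sequences of 3 of these genes are shown because their transcripts were seen almost only in sub. They are the 250 bases before the RefSeq start on GRCm38.p6, read 5′ to 3′ on the gene's strand: chr3:82074712-82074961 (minus), chr6:8192618-8192867 (minus) and chr8:45885237-45885486 (plus). Capitals mark matches to the letters TGGGAA, bound by the Notch effector RBPJ, or GGAATG, bound by TEAD factors, on either strand. In Pdlim3 the last capitals are a TEAD and an RBPJ match that overlap.
Gucy1b1: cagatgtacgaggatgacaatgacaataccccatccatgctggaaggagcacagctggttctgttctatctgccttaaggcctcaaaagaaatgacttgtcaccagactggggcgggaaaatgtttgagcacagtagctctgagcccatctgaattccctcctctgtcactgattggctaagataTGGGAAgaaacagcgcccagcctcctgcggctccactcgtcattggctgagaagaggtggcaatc
Col28a1: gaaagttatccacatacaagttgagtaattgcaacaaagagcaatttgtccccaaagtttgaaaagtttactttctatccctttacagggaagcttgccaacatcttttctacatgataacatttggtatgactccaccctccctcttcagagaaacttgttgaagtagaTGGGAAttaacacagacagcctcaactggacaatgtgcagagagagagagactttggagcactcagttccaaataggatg
Pdlim3: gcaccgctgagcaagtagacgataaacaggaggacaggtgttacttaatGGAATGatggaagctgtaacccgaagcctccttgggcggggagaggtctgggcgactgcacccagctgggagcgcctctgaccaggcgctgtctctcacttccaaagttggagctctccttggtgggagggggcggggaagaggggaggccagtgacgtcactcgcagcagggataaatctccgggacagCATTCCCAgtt
Foxf1 has no entry in the table of promoters used. Letter patterns were searched on both strands of 300 bases, 250 before to 50 after each start. They were the TATA box (TATAAA), TEAD (GGAATG), RBPJ (TGGGAA), ETS (CCGGAAG), and, by name, the interferon-stimulated response element (ISRE) and the CArG box. Of the 8 genes above that passed, 7 had a promoter entry, and 5 of the 7 held the RBPJ letters. These 5 were Gucy1b1, Col28a1, Pdlim3, Lrp1 and Ahnak. The share was 27.9% over the 104 promoters of the genes above, 18.4% over the 49 of the genes below and 23.5% over the 13547 of tested genes. The TEAD letters were in 2 of the 7, Pdlim3 and Ahnak, and in 12.6% of promoters of tested genes. The TATA box, ETS, CArG box and ISRE patterns were in 0 of the 7, against 8.29%, 15.6%, 1.41% and 3.1% over tested genes. Such matches describe the letters and show no binding.

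Igfbp3 and Lrp1 passed with high levels in neg as well. Igfbp3, a secreted carrier of insulin-like growth factors (chromosome 11, 7206086 to 7213923, minus strand), held 5875, 6497 and 10796 in sub, 1156, 5107 and 3518 in neg, and at most 0.85 in low and high. The lowest sub library stood just above the highest neg library. Its log2 difference from the other gates was 8.95 ± 1.60 (adjusted p 0.0275 in limma), and the pairwise adjusted p against neg was 0.833. Leaving out neg 3 (0.053), sub 1 (0.0544), sub 2 (0.112) or sub 3 (0.1) ended the call, with a lowest value of 0.0204 over the 12 such fits. It also ended with neg set against the average of low and high (0.0977) and with the 9 others as 1 group (0.53). Lrp1, an endocytic receptor of the LDL receptor family (chromosome 10, 127538161 to 127621148, minus strand), held 14199, 14008 and 23175 in sub, 10163 to 12055 in neg and 1268 to 3930 in low and high. Its log2 difference was 2.01 ± 0.26 (adjusted p 0.0028), and the call held in all 12 fits that left out a library (0.00407 to 0.0383). It was lost with no variance trend (0.385) and with the 9 others as 1 group (0.277). The mean of sub was 1.56-fold that of neg, and the pairwise adjusted p against neg was 0.594.

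Utrn and Ahnak were found at high levels in all gates. Utrn, or utrophin, ties the actin cytoskeleton to the membrane as dystrophin does (chromosome 10, 12382188 to 12869365, minus strand). It held 15245, 24784 and 20079 in sub and 5479 to 11346 in the other 9 libraries, with a log2 difference of 1.19 ± 0.20 (adjusted p 0.0179). The means in sub were 2.29-fold those in neg, 2.41-fold those in low and 2.15-fold those in high, with pairwise adjusted p of 0.0142, 0.0138 and 0.0346 in limma. These were adjusted within each pair of gates, and Utrn did not pass the stricter test against each gate. The contrast lost its call without sub 2 (0.162) or sub 3 (0.0758) and reached 0.00839 at its lowest. It was also lost with no variance trend (0.668), with no filter (0.0777), with the 9 others as 1 group (0.12) and in DESeq2 on 10 libraries (0.154). Dmd, the dystrophin gene, was also above all others, with 717.8, 1994 and 1340 in sub and 41.5 to 713.0 elsewhere, and did not pass (0.461). Ahnak, a very large scaffold protein (chromosome 19, 8989284 to 9076914, plus strand), held 42913, 52621 and 43337 in sub, 35052 to 39530 in low, 28454 to 33522 in high and 21939 to 25333 in neg. Its log2 difference was 0.62 ± 0.08 (adjusted p 0.00263), and its call held in all 12 fits that left out a library (0.00279 to 0.0383). It was lost with no variance trend (0.831), with the 9 others as 1 group (0.217), in DESeq2 on 10 libraries (0.462) and when a log2 difference of at least 1 was asked (1.0). The step from low to sub alone did not pass (0.14).

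**Figure D2:**
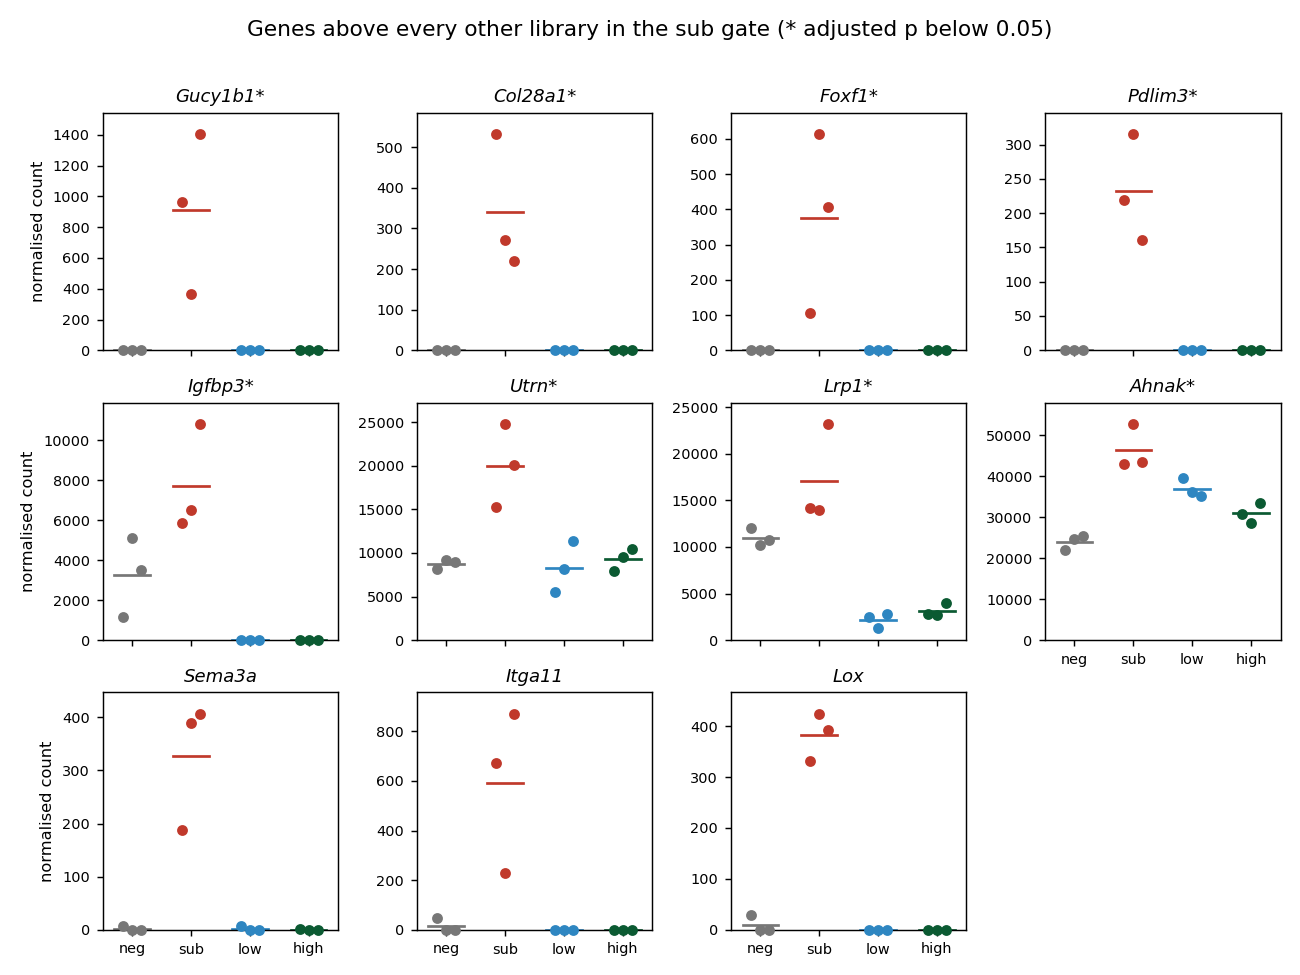
Normalised counts (linear y axis from 0) of 11 genes above all other libraries, by gate on the x axis; points are libraries, bars are gate means, and stars mark the 8 genes that passed. Gucy1b1, Col28a1, Foxf1 and Pdlim3 lie at or near 0 outside sub, whereas Utrn, Lrp1 and Ahnak are high in more than 1 gate.

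The next genes by distance did not pass the contrast. Itga11, a collagen-binding integrin chain of fibroblasts, held 671.4, 227.8 and 868.8 in sub, 49.1 in neg 1 and 0 in the other 8 libraries (adjusted p 0.0812). Lox, which cross-links collagen and elastin, held 331.6, 423.6 and 393.0 in sub, 29.0 in neg 1 and 0 in the other 8 (0.0812). Sema3a, a secreted axon guidance cue, held 187.9, 389.3 and 406.0 in sub and at most 7.60 elsewhere (0.102). In each of the 3 the lowest sub library stood well clear of the highest other library.

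Among the remaining genes above, none of which passed, several encode receptors, ligands and matrix proteins, picked here after their values were seen. Ednrb, an endothelin receptor, held 3549, 2065 and 4071 in sub, 423.0 to 1734 in neg and 0 in all low and high libraries. Its adjusted p of 0.0578 was the lowest among the 92 that did not pass. Npr3, which clears natriuretic peptides, held 2817, 1998 and 1984 in sub, 0 to 592.0 in neg and 0 in low and high (0.082). Vegfc, the main growth factor of lymphatic vessels, held 100.2, 752.2 and 858.8 in sub and 95.3, 0 and 0 in neg, with 0 in low and high (0.111). Procr, the endothelial protein C receptor, held 879.2, 158.0 and 35.9 in sub and 13.1, 0 and 0 in neg (0.114).

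Other genes picked in the same way were seen in neg as well. Eln, or elastin, held 1540, 1878 and 3866 in sub and 842.2 to 1150 in neg, with 68.3 in low 1 and 0 in the other 5 low and high libraries. Des, the muscle intermediate filament desmin, held 1410, 1962 and 2537 in sub, 915.5 to 1228 in neg and at most 19.9 in low and high. Ccn2, a matricellular protein, held 4072, 4974 and 3627 in sub, 1850 to 3522 in neg and 0 to 1679 in low and high. Mrc2, a collagen uptake receptor, held 980.2, 411.0 and 711.2 in sub and 305.4, 0 and 370.9 in neg, with 0 in low and high. Serpinh1, a collagen chaperone, held 1560, 2147 and 1387 in sub and 0 to 1286 elsewhere. Their adjusted p-values lay between 0.129 for Des and 0.659 for Serpinh1.

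Genes known from neurons and glia were picked in the same way. Scn7a, a sodium channel, held 872.6, 1301 and 1452 in sub and 0, 686.1 and 286.8 in neg. L1cam, an axonal adhesion protein, held 285.2, 195.8 and 168.6 in sub and at most 34.1 elsewhere, and it overlaps Arhgap4 on the same strand. Gpm6b, a membrane glycoprotein, held 708.2, 147.7 and 468.8 in sub, 0 in neg and low, and 97.8, 59.6 and 0 in high. None of these passed (adjusted p 0.167 to 0.42). The 8 Schwann and neural markers summed to 1776 to 3929 in sub, 680.0 to 2306 in neg, 520.0 to 1931 in low and 1028 to 1449 in high. Of the 8, 5 were at 0 throughout sub. The part of neural cells in these values was not tested.

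Of the 25 lists, the lymphatic endothelial list was the only one whose 3 sums in sub lay above all 9 others. Its 6 markers summed to 13928 to 25640 in sub, 5636 to 6880 in neg, 5288 to 7845 in low and 5933 to 10155 in high. Of the 6, 2 (Mmrn1 and Reln) are among the genes picked for lying above all other libraries. The sums include these 2, so they are no independent support for a trait of the list. Mmrn1, an extracellular protein of lymphatic vessels and platelets, held 4120, 6555 and 12172 in sub, 1467, 0 and 1447 in neg and at most 46.0 in low and high (adjusted p 0.109). Reln, a secreted glycoprotein also counted among the stellate markers, held 4288, 8510 and 5201 in sub, 3244 to 4104 in neg and 21.4 to 999.5 in low and high (0.197). Prox1, the transcription factor of lymphatic identity that hepatocytes and bile duct cells also express, held 2089, 2768 and 5768 in sub, 5.79 to 1038 in neg and 4884 to 9457 in low and high. None of the 6 markers was at 0 throughout sub or neg, and 0 of 6 passed the contrast in limma. The list median was 3.63, against -0.30 over all tested genes, and was not the highest among the lists. The pan-endothelial list had 4.93, the hepatic stellate list 4.58, the portal fibroblast list 4.30 and the smooth muscle and pericyte list 4.21. A list nearly absent from low and high can have a high median without being highest in sub. The mean of sub was the highest of the 4 gates for 0 of 10 pan-endothelial markers, whose sums were lower in sub than in neg.

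Over the 25 lists, most of the listed genes lay within the range of the other gates. Of all tested genes, 0.62% lay above and 0.329% below all other libraries. The arterial and portal vein list had 1 of 10 tested members above all others, Efnb2, which encodes the arterial ligand ephrin-B2. It held 3986, 6726 and 4117 in sub and 415.3 to 3691 elsewhere, did not pass (0.477), and overlaps 3 other annotated genes on its strand. The sums of that list were 11044 to 21953 in sub and 12185 to 14464 in neg. The Notch list had 1 of 13 above, the ligand gene Dll1, with 1171, 1525 and 1039 in sub, 402.7 to 584.5 in neg and 0 to 512.9 in low and high (0.481). The list of interferon-inducible GTPases had 1 of 15 above, Gbp3, with 2176, 2103 and 2457 in sub and at most 1655 elsewhere (0.44). The immediate early list had 1 of 10 above, Ier3, with 975.0, 1319 and 1090 in sub and 684.8 to 899.6 in neg (0.666). The TGF-beta and BMP list of 20 had 0 above and 1 below, the receptor gene Tgfbr1.

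Passing members were found in 4 lists: 3 of 15 biliary, 2 of 15 matricellular, 2 of 15 interferon-inducible GTPase and 1 of 8 nitric oxide genes, all higher, where 0.167% of all tested genes passed as higher. Several of these calls were unstable. In the 12 fits that left out a library, Sox9 kept its call in 3 (adjusted p 0.0082 to 0.175), Iigp1 in 4 (0.0204 to 0.165) and Gvin1 in 9 (0.019 to 0.162). Iigp1 was lower in sub than in neg, with 8363, 9110 and 11713 in sub, 12834 to 14980 in neg and 431.6 to 1813 in low and high. The biliary 3, Sox9, Spp1 and Pkhd1, were not above the other gates. Pkhd1, the gene of the ciliary protein fibrocystin, held 6179, 5720 and 3754 in sub, 0 in neg and 7651 to 13154 in low and high. No member was above all 9 libraries in the lists of biliary epithelium, hepatocyte, pan-endothelial, sinusoidal, central vein, smooth muscle, extracellular matrix or proliferation genes. The extracellular matrix list summed to 63482 to 94214 in sub and 84848 to 91936 in neg, with 0 of 15 passing.

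**Figure D3:**
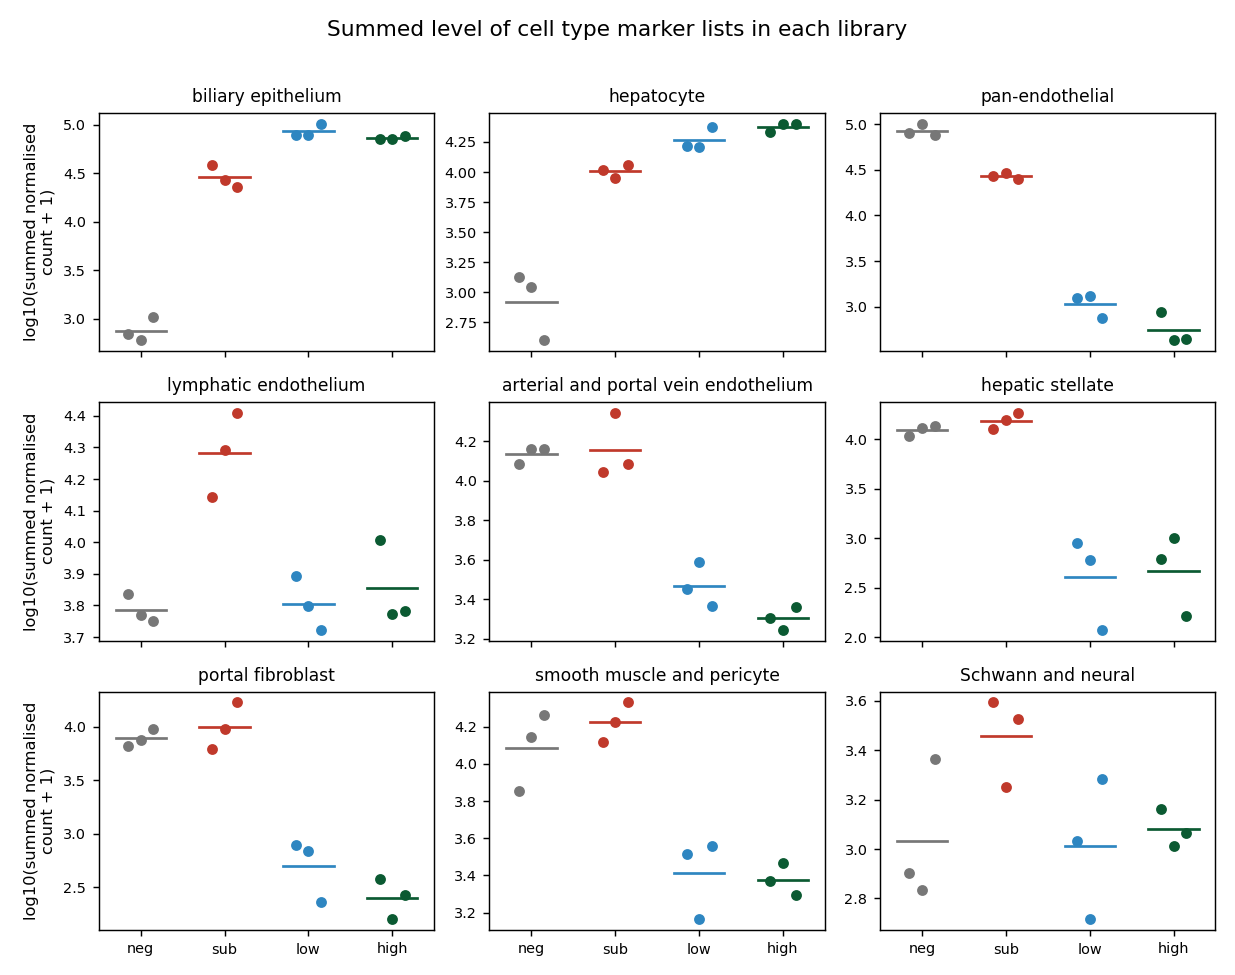
Summed normalised count of 9 marker lists on a log10 y axis that does not start at 0, by gate on the x axis; points are libraries and bars are means on that scale. Sub lies between neg and the brighter gates for the biliary, hepatocyte and pan-endothelial lists and overlaps neg for the mesenchymal lists. It lies above the other gates for the lymphatic list, which includes Mmrn1 and Reln, genes picked for lying above all other libraries.

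Of the 53 genes below all others, 10 were at 0 in all 3 sub libraries. Over all 16128 tested genes, 3308 were at 0 in all 3 sub libraries, 3255 in neg, 2972 in low and 2698 in high. The lowest of the other gates was neg for 19 of the 53, low for 14 and high for 20 (35.8%, 26.4% and 37.7%), against 43.6%, 32.8% and 23.6% of all tested genes. The median level of the 53 was 36.5 in sub and 625.7 over the 9 other libraries. For 12 of the 53, and for 3748 of all 16128, every sub library held at most 3 reads, so such low levels are as common among all tested genes.

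The 5 that passed encode enzymes and regulatory proteins. Lnx2, a ubiquitin ligase that binds the Notch inhibitor Numb (chromosome 5, 147016655 to 147076586, minus strand), held 0, 1.14 and 0 in sub. It held 434.1 to 1449 in neg, 490.6 to 921.9 in low and 164.2 to 447.4 in high, and was at least 80.7-fold lower in sub than in each gate. Its log2 difference was -8.58 ± 1.44 (adjusted p 0.0205 in limma), and it kept the call in all 12 fits that left out a library (0.021 to 0.0428). It lost the call in edgeR on 10 libraries (0.0928) and with the 9 others as 1 group (0.12). Got2, the mitochondrial aspartate aminotransferase (chromosome 8, 95864134 to 95888547, minus strand), held 0, 2.29 and 0 in sub and 151.6 to 1428 elsewhere (log2 difference -8.22 ± 1.47; adjusted p 0.0275). Got2 has a copy, Gm10874, 98.8% identical over 1637 bases, that was at 0 in all libraries but low 1 (61.6). The Got2 call was lost without sub 2 (0.0563), high 1 (0.0623) or high 2 (0.0547) and reached 0.0274 at its lowest. It was also lost in edgeR on 12 libraries (0.0556) and on 10 (0.233) and with the 9 others as 1 group (0.12).

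Usp1, Phf10 and Tab3 were at 0 in all 3 sub libraries. Usp1, a deubiquitinase of the DNA damage response (chromosome 4, 98923810 to 98935543, plus strand), held 97.8 to 443.3 in neg, 303.3 to 849.0 in low and 321.8 to 1064 in high. It was at least 74.0-fold lower in sub than in neg (log2 difference -8.52 ± 1.55; adjusted p 0.0296). The call was lost without neg 3, sub 2, low 1, high 1 or high 2, with adjusted p of 0.0541 to 0.0792, and reached 0.029 at its lowest. It was also lost with array weights (0.0532), in edgeR on 10 libraries (0.246) and with the 9 others as 1 group (0.12). Phf10, a subunit of the BAF chromatin remodelling complex (chromosome 17, 14945009 to 14961273, minus strand), held 103.3 to 1188 in the other gates and was at least 40.8-fold lower in sub than in neg (-8.54 ± 1.53; 0.0275). Its call was lost without sub 2 (0.0659), high 2 (0.0578) or high 3 (0.0505) and reached 0.0269 at its lowest. Array weights (0.0528), edgeR on 10 libraries (0.13) and the 9 others as 1 group (0.12) ended it as well. Phf10 overlaps 1600012H06Rik on the other strand, and whether strand was used in counting is not given in the sources used here. Tab3, an adaptor of the kinase TAK1 (chromosome X, 85574022 to 85634469, plus strand), held 24.6 to 1112 in the other gates (-8.43 ± 1.61; 0.035). Its call held in 2 of the 12 fits that left out a library, those without sub 1 and low 2 (0.0323 to 0.0887). Array weights (0.0699), a block for the replicate number (0.056), edgeR on 10 libraries (0.199) and the 9 others as 1 group (0.146) ended it too.

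**Figure D4:**
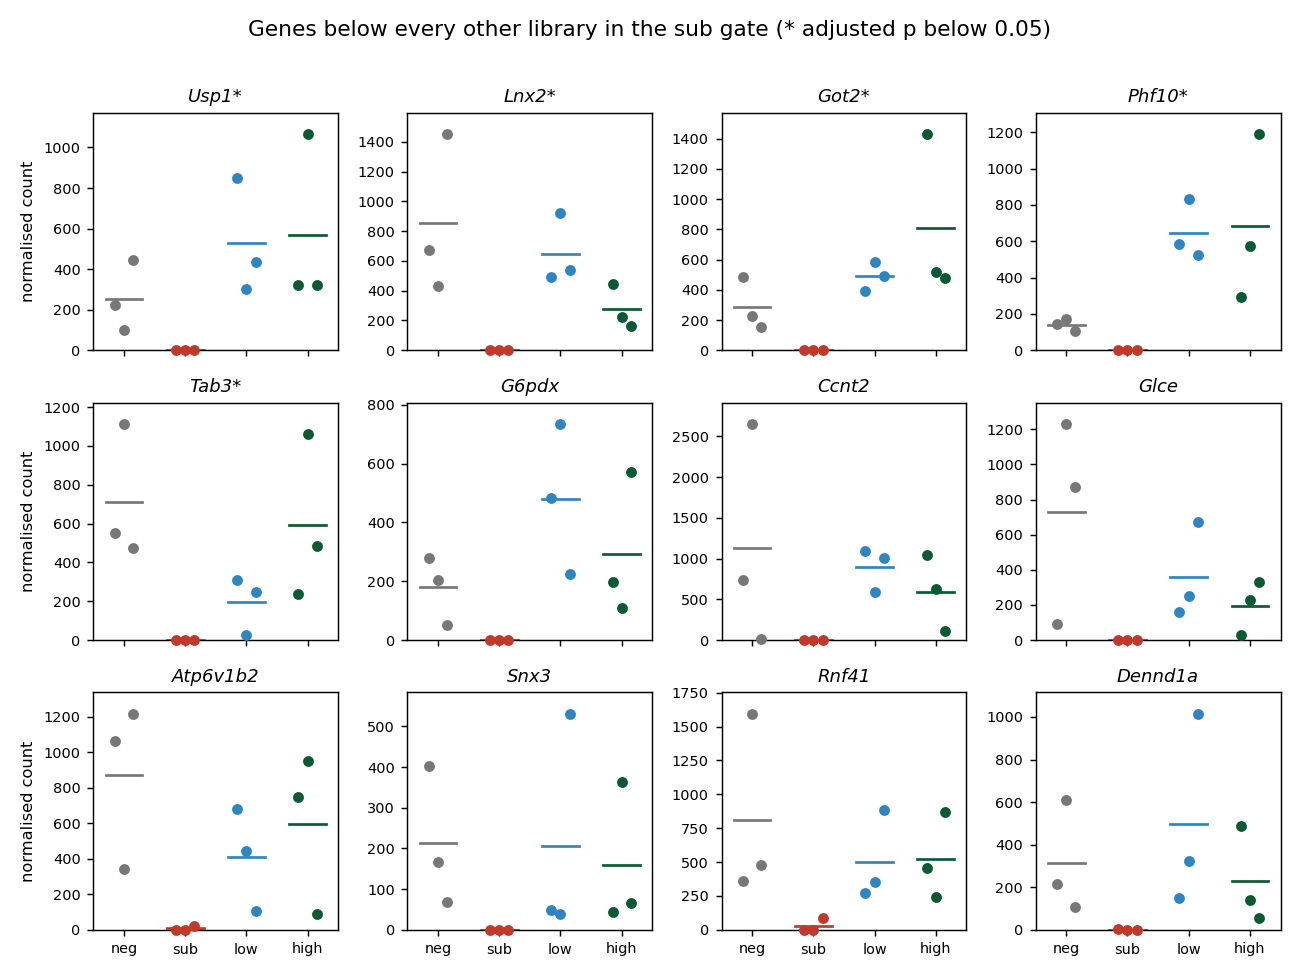
Normalised counts (linear y axis from 0) of 12 genes below all other libraries, by gate on the x axis; points are libraries, bars are gate means, and stars mark the 5 genes that passed. The sub libraries lie at or near 0 in every panel, at most 86.8 in Rnf41, while the other gates spread widely, as Tab3 with 24.6 in low 2 and 1112 in neg 2 shows.

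The other genes below did not pass the main test. Of 28 alternatives, G6pdx passed in 6, Glce in 3, Snx3 in 3, Ccnt2 in 7, Rnf41 in 4 and Dennd1a in 3. DESeq2 on 12 libraries was among them for each gene. G6pdx, the first enzyme of the pentose phosphate pathway, was at 0 in sub and held 51.2 to 734.1 elsewhere (adjusted p 0.0612); it overlaps Ikbkg on the other strand. Glce, an epimerase of heparan sulfate synthesis, was at 0 in sub and held 28.6 to 1229 elsewhere (0.0661). Snx3, an endosomal sorting protein, was at 0 in sub and held 39.1 to 530.1 elsewhere (0.157). Ccnt2, a cyclin of the transcription elongation factor P-TEFb, held 2.95, 0 and 2.0 in sub and 15.5 to 2648 elsewhere (0.0658). Rnf41, a ubiquitin ligase, held 0, 0 and 86.8 in sub and 239.5 to 1592 elsewhere (0.0883), and Dennd1a, an activator of a Rab GTPase, 2.95, 0 and 1.0 against 53.9 to 1013 (0.109).

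Atp6v1a and Atp6v1b2 encode the catalytic core of the V-ATPase, the proton pump of lysosomes, and were picked after their values were seen. Atp6v1a held 46.4, 74.4 and 8.0 in sub and 267.9 to 1008 elsewhere (0.149), and Atp6v1b2 0, 0 and 23.9 against 88.2 to 1214 (0.0695). Of 16 V-ATPase genes tested, 2 lay below, 0 above and 0 passed the main test, where 0.329% of all tested genes lay below. Atp6v1b2 passed in 7 of 28 alternatives. Smarcd2 and Ss18, picked in the same way, encode BAF subunits and held 0 to 281.3 and 126.7 to 162.6 in sub, against 394.5 to 1011 and 231.4 to 868.3 elsewhere. Neither passed (0.215 and 0.566). The BAF subunits were not counted as a list, so nothing is concluded about the complex.

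The better-covered genes below differed by less. Sirt1, a protein deacetylase, held 403.1, 0 and 636.4 in sub and 1090 to 3724 elsewhere (0.113). Tgfbr1, the type I receptor of TGF-beta, held 645.6, 154.6 and 137.6 in sub and 695.4 to 1802 elsewhere (0.262). Rbm25, a splicing factor, held 8494, 5581 and 8958 in sub and 9382 to 15764 elsewhere, the smallest distance of the 53 from the nearest gate, 0.54 on the log2 scale (0.101). The mitochondrial gene mt-Co3 held 599.9, 174.0 and 345.1 in sub and 707.8 to 2080 elsewhere (0.475). Its copy in the nuclear genome, Gm28437, identical over 783 bases, was below as well, so reads cannot be assigned between them. The narrowest gap between sub and the rest was 0.035, for Gm37761, and Cdc14a missed the rule by 0.048.

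The contrast also passed 21 genes that were not outside the range of the other gates, 19 higher and 2 lower. In 13 of the 19 the mean of sub lay above those of low and high, and in 5 of these, Gvin1, Thbs2, Vim, Timp3 and Sptbn1, above that of neg too. Vim, an intermediate filament of mesenchymal and endothelial cells, held 9494, 15565 and 14666 in sub, 7122 to 12996 in neg and 6.53 to 734.0 in low and high (4.33 ± 0.81; adjusted p 0.0296). Timp3, a matrix-bound protease inhibitor, held 13725, 24990 and 21594 in sub, 11059 to 14974 in neg and 1708 to 5582 in low and high (2.07 ± 0.30; 0.0061). Gvin1 shares 9005 bases at 99.97% identity with Gm4070, and the sum of the pair was 13254 in sub and 14808 in neg. In the other 6, Sox9, Spp1, Pkhd1, Gm43305, mt-Rnr1 and mt-Rnr2, sub lay above neg but not above both low and high. The 2 mitochondrial rRNAs together held 4.98% to 5.51% of the reads in sub, 2.10% to 2.78% in neg and 5.17% to 6.00% in low and high, so the libraries of neg stand apart in this share; its part in the results was not tested.

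The 2 lower genes have near-identical copies. Rplp0, a ribosomal stalk protein gene, held 477.6, 245.0 and 547.6 in sub and 470.8 to 5226 elsewhere (-2.85 ± 0.55; 0.0358). Summed with its copy Gm8730, it averaged 4113 in sub, 3448 in neg, 5228 in low and 4757 in high. Rpl19-ps11, a pseudogene, was at 0 in sub and averaged 2376 in neg, but with its parent gene Rpl19 it summed to 3783 in sub and 4265 in neg. These 2 calls are therefore uncertain.

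The 100 genes above were mostly protein coding. GENCODE M21 gave 93% of the 100 as protein coding, 92.2% of the 51 matched genes below and 80.2% of the 15790 matched tested genes. Median gene lengths were 30.5 kb above, 33.3 kb below and 18.8 kb over tested genes. The lowest of the 3 sub libraries was sub 1 for 38 of the genes above, sub 2 for 26 and sub 3 for 36.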

How the data were processed

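Total RNA of sorted liver cells was treated with DNase for 30 min and made into stranded total RNA libraries with a SMARTer Pico v2 kit, per the labels' protocols. A single table was deposited, and its unit is a signal: normalised counts by gene and library, made by the authors. Salmon, DESeq2 1.26.0 and mm10 are named, with no role, in the submitters' processing notes. In all 12 columns the deposited signal was a whole multiple, within 0.01 read, of the value of 1 read, so reads could be recovered; in sub 3 and high 2 the value of 1 read lies near 1, where this check is not decisive, so count fits were also run on the other 10 libraries. Depth in the report is the sum of recovered reads, and limits from reads cover counting error only. Each column was mapped to a sample through its description, and the gate and replicate number come from the titles.

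The main test was limma 3.58.1 in R 4.3.3 on log2(normalised count + 1), with a variance trend, gate as the only term, all 12 libraries and genes with a mean of at least 10. The contrast was sub minus the mean of the other gates, two-sided, adjusted by Benjamini-Hochberg over 16128 genes. A log2 difference on this scale understates changes of low genes. A gate with at most 3 reads in every library was treated as at the floor, and folds against it are lower bounds from 3 reads in a library. Deviations of same-numbered libraries correlated at no more than 0.0266 (median 0.0114 over 18 pairs), and the numbers were not used to pair them.

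Genes named are landmarks, then 12 per direction by distance from the nearest gate, those that passed first, with a mean of at least 100 in sub (higher) or in the other libraries (lower), then for each list its passing members without overlap or its 2 most abundant members, and the genes at the limits of the rule; others are said to be chosen after their values were seen. Some genes that the rule names are not reported here. Members and lists were chosen with earlier results of these data known. Positions are from GENCODE M21, promoters from RefSeq on GRCm38.p6, and copies are transcripts at least 98% identical over at least 300 bases. Alternatives were other pseudocounts, filters, scalings, weights and fits, each library left out, and edgeR 4.0.16 and DESeq2 1.42.0 on recovered reads.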

Additional observations from a re-analysis of the deposited data

How the results depend on the processing

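The main counts were 27 genes higher and 7 lower by the contrast, 0 and 0 by the test against each gate, and 100 above and 53 below without overlap. Genes higher numbered 57 with a pseudocount of 5, 17 with no filter, 86 with no variance trend, 10 with array weights, 316 and 326 in edgeR on 12 and 10 libraries, and 1011 and 957 in DESeq2. Genes lower numbered 17, 7, 27, 2, 12, 30, 869 and 914 in the same order. These were not always the same genes: of the 27 and 7, 8 and 5 were called with no variance trend and 14 and 5 with no filter. With the 9 other libraries as 1 group both counts were 0, with 922 genes at an unadjusted p under 0.05. The test against each gate passed 4 above and 4 below with no variance trend, 1 below in edgeR on 12 libraries and 5 on 10, 2 above and 390 below in DESeq2 on 12, and 123 and 425 on 10. DESeq2 on 10 libraries was added after the data were seen; those 10 leave out sub 3 and high 2. Rescaling and quantile normalisation moved the median log2 difference of all genes, -0.30, to -0.32 and -0.20.

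Leaving out a library gave 3 (without sub 2) to 23 genes higher, 2 to 25 lower (without sub 1), 0 above and 0 to 1 below each gate, and 112 to 374 above and 59 to 193 below without overlap, since fewer libraries overlap less. By group means 3925 lay above and 2965 below. The replicate block gave 24 higher and 7 lower, of which 21 and 6 were also called without it. Deviations of same-numbered libraries correlated by -0.016 to 0.027, and 10 of 12 libraries correlated best with one of their own number, a hint from the data and not the design. The block ended the calls of Col28a1 (0.0511), Foxf1 (0.056), Pdlim3 (0.0708) and Tab3 (0.056) among the genes without overlap, and that of Sox9 (0.074).

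Of 1898 values of 68 named genes, 1619 kept direction and call, 136 lost the call, 106 gained it and 37 changed sign. No sign change touched a gene that passed in limma on 12 libraries. Jun went to 0.14 with quantile normalisation and 0.17 with neg set against the average of low and high, and Hbb-bs to -0.23 with array weights. In edgeR and DESeq2 on 12 libraries Ass1 went to 1.97 and 2.06, Kit to 0.60 and 0.61, Rspo3 to 3.93 and 13.23, and Csf1r to 1.43 and 1.23. On 10 libraries Alb went to -0.023 and -0.018, Ass1 to 2.48 and 2.58, Kit to 4.06 and 8.49, Prox1 to -0.13 and -0.084, Csf1r to 1.89 and 1.65, and Pcna to 0.56 and 0.58. Of these sign changes, 3 also passed: Kit on 10 libraries in edgeR (adjusted p 0.0007) and DESeq2 (0.0004), and Rspo3 on 12 in DESeq2 (0.001). Without a library the ranges were -0.041 to 1.44 for Alb, -4.66 to 0.33 for Ass1, -3.88 to 0.24 for Csf1r, -2.94 to 2.06 for Hbb-bs, -0.17 to 0.072 for Jun, -0.13 to 4.68 for Mki67, -2.21 to 0.46 for Ms4a1 and -3.72 to 0.77 for Pcna. The cause was not tested.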

Other observations

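Receptors for endothelin and natriuretic peptides and the endothelin ligand genes Edn1 and Edn3 can be read side by side, in a list drawn up after the values were seen. Of 7 such genes, 6 were tested (all but Edn3) and 0 passed. Of the 6, 2 lay above all other libraries, Npr3 and Ednrb, where 0.62% of all tested genes did. The median log2 difference was 3.92, against -0.30 over all tested genes. Npr1, the receptor of atrial natriuretic peptide, had a lower mean in sub than in neg, with overlap: it held 687.6, 1200 and 2275 in sub, 1668 to 3309 in neg and 0 to 1096 in low and high. Ednra held 312.5, 0 and 144.6 in sub, 368.9, 589.5 and 0 in neg and 0 in low and high.

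The complex that utrophin and dystrophin share was also read gene by gene, again in a list drawn up after the values were seen. Of 14 genes, 12 were tested, and 4 of the 12 had a negative log2 difference. Utrn passed, where 0.167% of all tested genes passed as higher. Utrn and Dmd lay above all others, where 0.62% of all tested genes did. The median log2 difference was 0.97, against -0.30 over all tested genes. Sgcd, a sarcoglycan, held 752.4, 715.6 and 0 in sub, 263.9, 0 and 0 in neg and 0 in low and high. Dag1, the dystroglycan gene, overlapped between all gates, with 3203, 1305 and 206.5 in sub and 67.3 to 1898 elsewhere.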
